A study of Mus musculus with 12 samples.

Results

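The replication-dependent histone genes are the clustered gene copies that code for the core histones H2A, H2B, H3 and H4 and the linker histone H1. They were taken here as every gene of the count table whose symbol starts with Hist1h, Hist2h, Hist3h or Hist4h and that held 10 or more raw counts summed over the 12 libraries. This left 65 of 70 matching symbols, out of 48709 names in the table, with 5 H1, 19 H2A, 17 H2B, 12 H3 and 12 H4 genes. The matching symbols below the minimum were Hist1h1t and Hist1h2ba with 3 counts each, and Hist1h2aj, Hist1h4m and Hist3h2bb-ps with 0. The members nearest above it were Hist1h2ad with 37 and Hist2h3c1 with 38 counts.

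The study sequenced RNA of invariant NKT (iNKT) cells, CD1d-restricted T cells that were sorted from the thymus of 7 weeks old C57BL/6J mice, and asked which genes depend on the level of miR-155. Cells lacking NK1.1 (NK1.1-) and cells carrying it (NK1.1+) were sequenced from WT and from miR-155KI mice, in 4 groups of 3 libraries, where NK1.1 marks the last stage of thymic maturation. The miR-155KI mice carried 2 copies of a miR-155 allele inserted at Rosa26 and a CD4Cre transgene, which switches the allele on from the CD4-expressing thymocyte stage, and the controls named WT were littermates without CD4Cre that carried the inserted allele as well. No group carried CD4Cre alone, so effects of the Cre transgene and of the microRNA cannot be told apart. Thymocytes had been depleted of CD8+ cells with beads and sorted on TCR-β, the CD1d tetramer, NK1.1 and CD44. The labels do not say whether libraries of a group came from separate mice, and the methods speak of pooled replicates, so the p-values measure only the spread between these libraries.

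Histone genes of this kind are transcribed strongly in S phase, when new nucleosomes must be laid down on the copied DNA, and are nearly silent in cells that are not replicating. Their mRNAs usually end after a conserved stem-loop and not in a poly(A) tail. The stem-loop is bound by the protein Slbp, which is needed for 3′ end formation, export and translation, and histone mRNA is degraded quickly when DNA synthesis stops. Early NK1.1- iNKT cells are known to proliferate in the thymus, while NK1.1+ cells are mostly resting.

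The libraries held between 12819476 and 20518257 counts (median 18066119.5), and the histone genes took 0.0314% to 0.244% of them. The host gene of miR-155, Mir155hg, had 9.65 to 13.7 TMM-normalised CPM, the counts scaled to a common library size, in the 6 WT libraries and 95.2 to 144 CPM in the 6 miR-155KI libraries, in the direction of the labels. The 5 iNKT markers Zbtb16, Cd3e, Trac, Traj18 and Trav11 had counts in every library, and Klrb1c, which codes for NK1.1, had 36.7 to 79.9 CPM in NK1.1- and 358 to 774 CPM in NK1.1+ libraries. WT replicates 2 and 3 of both pools had 135 to 237 CPM of Xist and at most 6.92 CPM of the Y-linked Ddx3y, while WT replicate 1 of both pools and all 6 miR-155KI libraries had at most 35 CPM of Xist and at least 52.5 CPM of Ddx3y, so sex-linked RNA moved with genotype. The labels give no sex, and its part in the genotype differences was not tested. The kit named in the labels primes on poly(A) while the paper's methods name another kit, and 12 RNAs known to lack a poly(A) tail that the table lists were at 0 in all 12 libraries. The values below describe only the histone RNA that these libraries captured.

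In the annotation (GENCODE M21, build GRCm38), 52 members lay on chromosome 13 (Hist1 cluster), 10 on chromosome 3 (Hist2), 2 on chromosome 11 (Hist3) and 1 on chromosome 6 (Hist4), and 62 had 1 exon in the transcript used. The stem-loop, searched on the transcript strand as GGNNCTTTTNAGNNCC, was found in 42 of the 65 members, against 0.167% of 58737 protein-coding transcripts. It lay in the last 100 bases of 21 members and further inside the annotated transcript of 21 others, and 23 members had no match, of which 13 had no annotated bases after the stop codon. A poly(A) signal (AATAAA or ATTAAA) followed the stem-loop in 14 of the 21 members with an inner stem-loop and in 1 of the 21 with a terminal one. All bases after the stem-loop were searched, 151 to 4884 in the inner and 3 to 74 in the terminal group. The counts therefore cannot be compared, since a longer stretch holds such letters more often. The windows below, from GENCODE transcripts and read 5′ to 3′ on the transcript strand, show the forms found, for members on which the results turn, with the stem-loop in capitals and its coordinates before the sequence.
Hist1h2ap (H2A, chr13:21833029-21833044, minus strand): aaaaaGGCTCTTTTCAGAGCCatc
Hist1h2ab (H2A, chr13:23751572-23751587, plus strand): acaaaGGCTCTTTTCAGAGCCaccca
Hist1h2bj (H2B, chr13:22043638-22043653, plus strand): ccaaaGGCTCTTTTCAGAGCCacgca
Hist1h1c (H1, chr13:23739512-23739527, plus strand): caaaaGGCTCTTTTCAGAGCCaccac
Hist1h3c (H3, chr13:23745047-23745062, minus strand): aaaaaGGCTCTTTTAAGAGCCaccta
Hist2h2ac (H2A, chr3:96220418-96220433, minus strand): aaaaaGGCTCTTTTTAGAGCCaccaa
Hist1h4d (H4, chr13:23581950-23581965, plus strand): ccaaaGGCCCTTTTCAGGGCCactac
Hist1h4i (H4, chr13:22040966-22040981, minus strand): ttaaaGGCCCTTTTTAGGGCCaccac

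The form of Hist1h2ap was shared by 26 members of the H1, H2A, H2B and H3 classes. The form of Hist1h4d was found in 6 members, all of the H4 class, and that of Hist1h3c in 5 H2B and H3 members. In Hist1h2ap, Hist1h2ab, Hist1h2bj, Hist1h3c and Hist2h2ac the annotated transcript ended 3, 11, 23, 74 and 57 bases after the stem-loop. In Hist1h1c, Hist1h4d and Hist1h4i the annotated transcript ran on for 840, 770 and 330 bases, with the letters of a poly(A) signal somewhere in them. The distance of these letters from the transcript end was not measured.

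Promoters were available from RefSeq (GRCm38.p6) for 59 members, as 250 bases before and 50 after the start. The octamer ATTTGCAT, the site of Oct-1 in H2B promoters, was found on either strand in 6 of 15 H2B and 7 of 18 H2A promoters and in no H1, H3 or H4 promoter, against 1.74% of 32851 mouse promoters. A CCAAT box was found on either strand in 51 of the 59, against 37.4% of all promoters, but in only 3 of 11 H4 promoters. Pairs of H2A and H2B genes are transcribed away from each other, and 2 of those pairs shared 1 octamer between their starts. They are shown on the strand of the H2B gene, with the octamer in capitals.
Hist1h2bg with Hist1h2ae (chr13:23571341-23571348, plus strand): tgagtcccttATTTGCATagaacctcta
Hist1h2bk with Hist1h2ah (chr13:22035791-22035798, plus strand): atttcactttATTTGCATacgaagttct
The starts lay 176 bases apart in the first pair and 302 in the second. Their values in the pools are given with the H2B genes below.

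Members differed widely in level. In WT NK1.1- cells Hist1h2ap, an H2A gene at chr13:21833026-21833507, was highest per length of annotated exons, at a mean of 2133 CPM per kilobase. It was followed by the H3 gene Hist2h3b at 321 and the H4 gene Hist1h4d at 88.6 CPM per kilobase. The median member was at 6.37 CPM per kilobase in WT NK1.1- and 1.96 in WT NK1.1+ cells, and 26 members against 9 reached 10 CPM per kilobase. Hist1h2ap alone held 56.7% ± 0.497 (SD, n = 3) of the members' counts in WT NK1.1- cells and 37.4% ± 4.26 in WT NK1.1+ cells. In the miR-155KI pools its share was 56.1% ± 1.75 and 44.3% ± 3.54.

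The gene copies are so alike that reads can belong to several of them, and the sources used here do not say how the authors' counting treated such reads. Of the 50-base stretches of a member, a median of 55.0% also occurred in another gene, read on either strand. Genes that overlap a member count here too, so the share does not measure only the likeness of the copies. For Hist1h2ap the share was 93.1%, with Hist1h2ao, so its level is uncertain as that of 1 gene. It was 100% in 5 members, among them Hist2h3b, Hist2h2aa1 and Hist2h2aa2, each overlapped by a gene on the opposite strand. An exon of another gene overlapped 25 members. Hist1h1b and Hist1h1a had no shared stretch, and Hist1h1c had 8.5%.

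**Figure D1:**
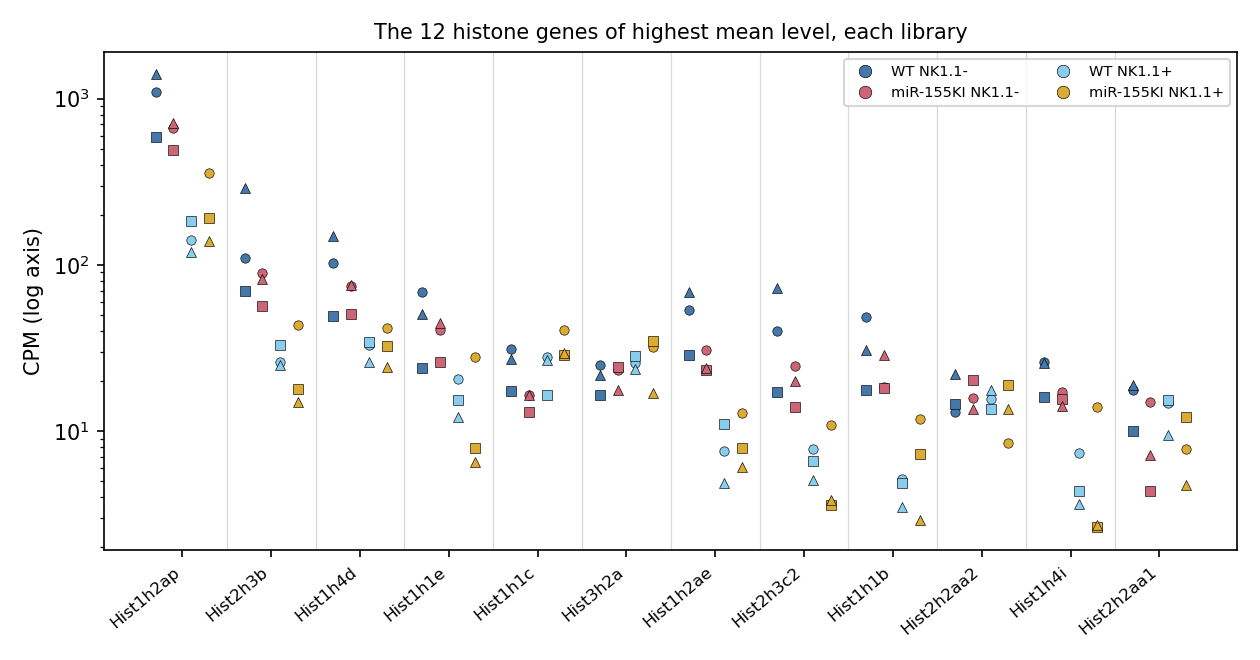
Level of the members with the highest mean over the 12 libraries, as TMM-normalised CPM on a log axis. Each point is 1 library, coloured by group (circle, square and triangle for replicates 1, 2 and 3). Hist1h2ap lies between 585 and 1404 CPM in WT NK1.1- and between 120 and 185 CPM in WT NK1.1+ libraries, while Hist3h2a lies between 16.5 and 35 CPM in all 12 libraries.

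Summed over all members, the level was 1921, 1027 and 2501 CPM in the WT NK1.1- libraries (replicates 1, 2 and 3), 1210, 885 and 1220 CPM in miR-155KI NK1.1-, 421, 440 and 327 CPM in WT NK1.1+, and 735, 454 and 326 CPM in miR-155KI NK1.1+ libraries. Every NK1.1- library was thus above every NK1.1+ library of both genotypes, and the genotypes overlapped within each pool. WT NK1.1- replicate 2 lay with the miR-155KI libraries, and miR-155KI NK1.1+ replicate 1 stood above the other 5 NK1.1+ libraries. The mean of WT NK1.1- cells was 4.59-fold that of WT NK1.1+ cells, and 3.18-fold without Hist1h2ap. In miR-155KI cells the same ratio was 2.19-fold, and 1.75-fold without Hist1h2ap. In bulk samples such as these, fewer replicating cells and less histone RNA per cell cannot be told apart.

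**Figure D2:**
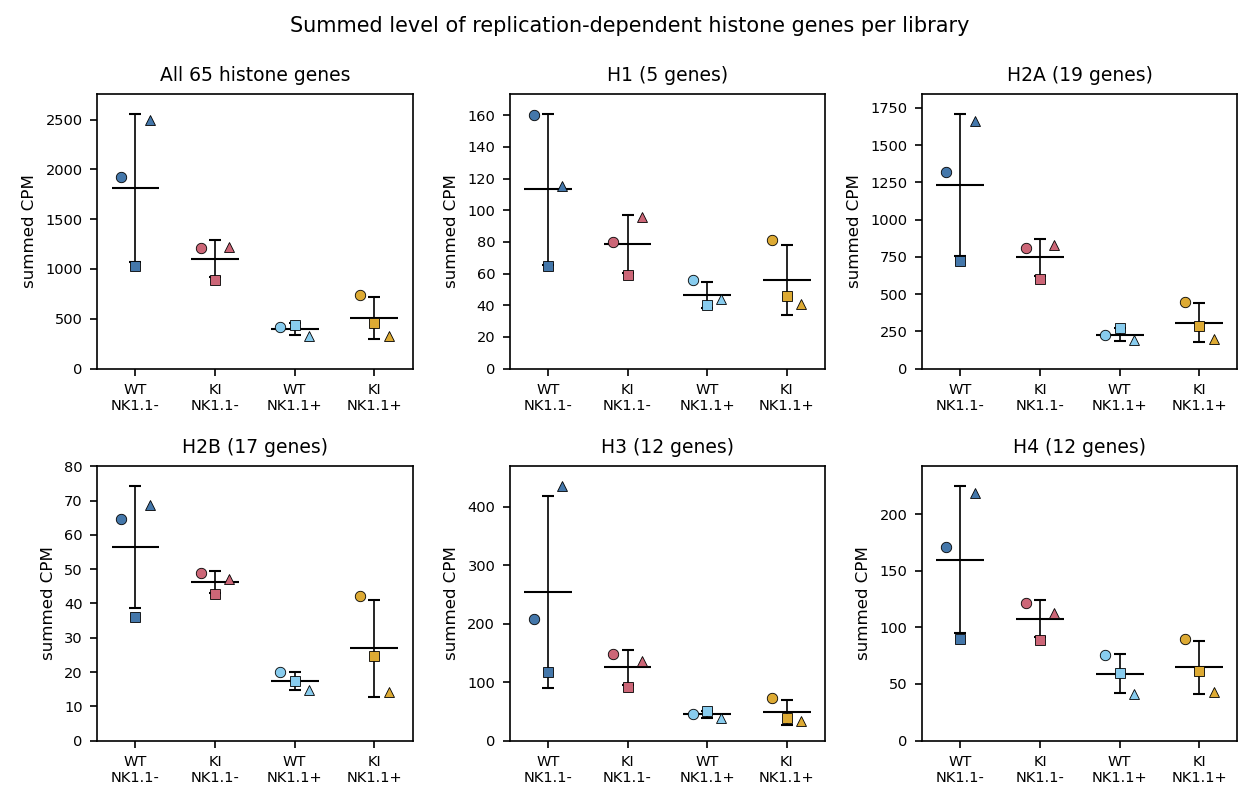
Summed TMM-normalised CPM of each histone class per library. Points are libraries (circle, square and triangle for replicates 1, 2 and 3), lines are means and bars SD (n = 3); H2A is carried by Hist1h2ap, and in H2A and H3 every NK1.1- library lies above every NK1.1+ library.

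The core and linker classes followed the same order with different ratios. The H2A sum of WT NK1.1- over WT NK1.1+ cells was 5.41-fold and the H3 sum 5.62-fold, while the H2B, H4 and H1 sums were 3.24-fold, 2.71-fold and 2.43-fold. Without WT NK1.1- replicate 3 the H3 ratio was 3.60-fold, below the 4.47-fold of H2A. Summed by cluster, the ratio was 5.28-fold for Hist1, 3.42-fold for Hist2 and 0.882-fold for Hist3, so the Hist3 sum was not lower in NK1.1+ cells. The log2 differences of the 2 Hist3 genes were -0.39 and 0.27, and neither passed the test. The Hist2 ratio was 2.23-fold without WT NK1.1- replicate 3. As a share of members' counts, H4 was 8.79% ± 0.0738 in WT NK1.1- and 14.7% ± 2.88 in WT NK1.1+ cells, and H1 was 6.41% ± 1.86 and 11.9% ± 2.48.

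NK1.1+ cells were first set against NK1.1- cells of WT mice, the comparison that follows maturation without the active allele. In edgeR's quasi-likelihood test over 13555 genes, at a Benjamini-Hochberg adjusted p under 0.05, 33 of the 56 members tested were lower in NK1.1+ cells and none was higher, where 10.9% of all genes tested were lower and 9.89% higher. The median log2 fold change was -1.98 over the members and 0.01 over all genes, with 53 of 56 values below 0. In 39 members every NK1.1+ library was below every NK1.1- library, which held for 18.6% of all genes tested. By class, 4 of 5 H1, 12 of 17 H2A, 7 of 13 H2B, 7 of 11 H3 and 3 of 10 H4 genes fell, and by cluster 30 of 45 Hist1, 3 of 8 Hist2, 0 of 2 Hist3 and 0 of 1 Hist4 genes. Members that were not tested had too few counts for edgeR's filter. The filter can be passed through 1 group alone, so members nearly absent from NK1.1+ cells were tested because NK1.1- cells held them. Such members could hardly be seen to rise, and they enter the counts and the median above. Among NK1.1+ libraries alone, those of both genotypes, 42 members passed the filter. This limit holds for both pool comparisons.

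Among the linker histones, which bind the DNA between nucleosomes, Hist1h1b (H1.5) had 48.9, 17.7 and 30.7 CPM in WT NK1.1- and 5.16, 4.85 and 3.50 CPM in WT NK1.1+ libraries. It fell by 2.87 on the log2 scale (SE 0.35, edgeR adjusted p = 0.000365). Hist1h1c (H1.2), the linker gene known to be expressed outside S phase as well, had 31.1, 17.5 and 27.1 CPM in WT NK1.1- and 28.0, 16.6 and 26.7 CPM in WT NK1.1+ libraries. These ranges overlapped almost fully (log2 difference -0.11, SE 0.25, edgeR adjusted p = 0.796). Hist1h1e (H1.4), Hist1h1d (H1.3) and Hist1h1a (H1.1) fell by 1.60, 1.87 and 1.73, with adjusted p of 0.0242, 0.00993 and 0.0483, but these calls rested on single libraries. On leaving out 1 library, the Hist1h1a call held only when that was WT NK1.1+ replicate 2 (adjusted p up to 0.161 without another), Hist1h1d was at 0.0603 without WT NK1.1- replicate 1, and Hist1h1e was at 0.0767 to 0.108 without WT NK1.1- replicate 3 or any 1 of the WT NK1.1+ libraries.

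Among the H2A genes, Hist1h2ap had 1096, 585 and 1404 CPM in WT NK1.1- and 141, 185 and 120 CPM in WT NK1.1+ libraries. It was lower in all NK1.1+ libraries, by 2.82 on the log2 scale (SE 0.35, edgeR adjusted p = 0.00179). The edgeR adjusted p was 0.0516 when the replicate number, taken to pair the WT pools, was a block. Hist1h2ab had 26.6, 14.0 and 33.7 CPM against 3.05, 3.33 and 2.30 CPM, the smallest p of the members (log2 fold change -3.13, SE 0.33, edgeR adjusted p = 7.6e-05). Hist1h2ah had 1.26, 2.23 and 2.01 CPM in NK1.1- libraries and no count in any WT NK1.1+ library. Set against a floor of 3 counts per library, it was at least 11.4-fold lower there. Hist3h2a went the other way, with 24.9, 16.5 and 21.8 CPM in NK1.1- and 25.8, 28.3 and 23.5 CPM in NK1.1+ libraries, and its difference of 0.27 did not pass the test (SE 0.19, edgeR adjusted p = 0.353). The copies Hist2h2aa1 and Hist2h2aa2 also overlapped between the pools, at -0.26 and -0.12 (edgeR adjusted p = 0.556 and 0.770).

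Of the H2B genes, the partners of H2A in the nucleosome's dimers, Hist1h2bj had 14.5, 9.27 and 22 CPM in WT NK1.1- and 2.38, 1.58 and 1.45 CPM in WT NK1.1+ libraries, a fall of 3.10 (SE 0.37, edgeR adjusted p = 0.00016). Of the octamer pairs, Hist1h2ae fell by 2.72 (SE 0.40, edgeR adjusted p = 0.0025), with an adjusted p of 0.0707 under the replicate block, and Hist1h2bg by 2.90 (SE 0.60, edgeR adjusted p = 0.00518). Hist1h2bk, the partner of Hist1h2ah, fell by 3.63 (SE 0.68, edgeR adjusted p = 0.00305). In miR-155KI cells Hist1h2ae was at -1.55 and passed the test, Hist1h2bg at -0.15 and Hist1h2bk at -1.04 did not (edgeR adjusted p = 0.0116, 0.928 and 0.602), and Hist1h2ah was not tested, so the pairs were not seen to move together there. In WT cells 8 of 10 H2A and 3 of 7 H2B genes with no octamer found fell as well. With it, 4 of 7 and 4 of 6 fell. The genes with none found include members without an available promoter, among them Hist1h2al and Hist1h2bc, which both fell.

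Of the H3 genes, Hist2h3b had 110, 69.7 and 291 CPM in WT NK1.1- and 26.1, 32.8 and 24.9 CPM in WT NK1.1+ libraries. Its fall of 2.52 was close to the threshold (SE 0.61, edgeR adjusted p = 0.049), and the adjusted p rose to 0.168 with the replicate block and lay between 0.0591 and 0.196 without WT NK1.1- replicate 1 or any 1 of the WT NK1.1+ libraries. Hist1h3c had 19.8, 8.24 and 27.3 CPM against 3.00, 1.58 and 1.5 CPM and fell by 3.21 (SE 0.46, edgeR adjusted p = 0.001). The H4 gene Hist1h4d, with 103, 49.3 and 150 CPM against 33.1, 34.5 and 25.9 CPM, fell by 1.72 (SE 0.40, edgeR adjusted p = 0.0289), with an adjusted p of 0.155 under the block and of 0.0673 to 0.141 without WT NK1.1- replicate 1 or any 1 of the WT NK1.1+ libraries. Hist1h4i fell by 2.16 (SE 0.30, edgeR adjusted p = 0.000459). The blocked fit called 30 members, 28 of them among the 33, and leaving out 1 library gave 26 to 33.

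In WT cells, markers of CD4+CD8+ (DP) thymocytes moved in the same direction as the histone genes. The summed level of 12 DP genes was 404, 236 and 296 CPM in WT NK1.1- and 93.5, 85.0 and 91.5 CPM in WT NK1.1+ libraries. Of the 9 tested, 8 were below 0 and 2 were lower, Ccr9 (-3.24) and Aqp11 (-0.85). None of the 12 was at 0 in all libraries. Their part in the difference was not tested. In miR-155KI cells the mean sum was also lower in NK1.1+ cells, at 228 against 386 CPM. Most single DP genes went the other way there, with 8 of 9 tested above 0 (median 0.87), 1 higher and 1 lower. Without replicate 1 of both WT pools, the libraries low in Xist, 28 members were called, 26 of them among the 33.

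**Figure D3:**
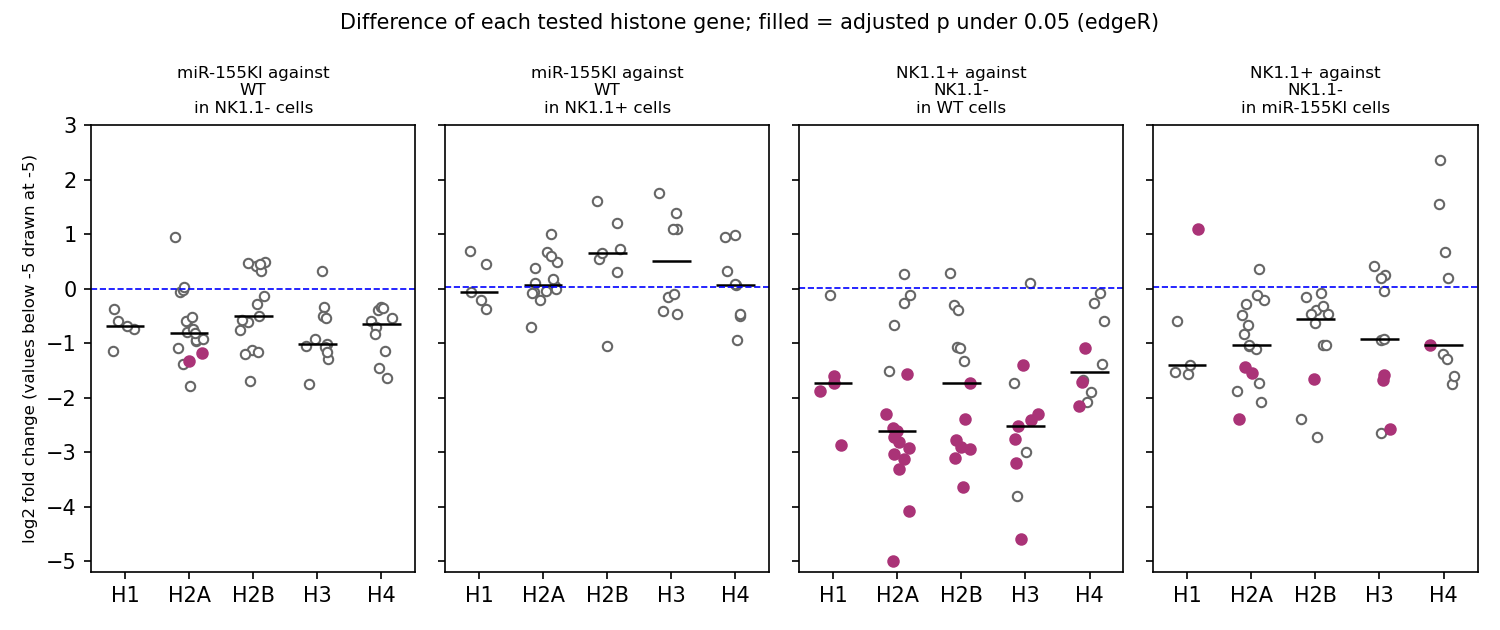
Log2 fold change of each tested member by class in the 4 pairwise comparisons. Points are members, filled where the edgeR adjusted p is under 0.05; black lines are class medians, the dashed blue line is the median of all genes tested, and values below -5 are drawn at -5 (Hist1h2ah). In WT cells 33 of 56 points are filled and below 0, in miR-155KI cells 8 below and 1 above 0 of 52, and in the genotype comparisons 2 and 0.

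In miR-155KI mice, 8 of 52 tested members were lower in NK1.1+ than in NK1.1- cells and 1 was higher, where 6.15% of all genes tested were lower and 7.92% higher. The median log2 fold change was -0.99 over the members and 0.03 over all genes, with 43 of 52 values below 0, and 22 members had every NK1.1+ library below every NK1.1- library, which held for 17.1% of all genes. The members that fell were Hist1h2ap, Hist1h2ae and Hist1h2ag of the H2A genes, Hist1h2bj, the H3 genes Hist1h3c, Hist2h3b and Hist2h3c2, and Hist1h4d. Each of these calls rested on single libraries. Leaving out any 1 of 5 libraries lost those of Hist1h2ag and Hist2h3c2 (edgeR adjusted p up to 0.206 and 0.172). Any 1 of 4 lost those of Hist1h2bj and Hist2h3b (up to 0.223 and 0.0834), and 1 or 2 libraries did so for the others. Hist1h2ap had 664, 490 and 709 CPM in NK1.1- and 356, 190 and 139 CPM in NK1.1+ libraries, without overlap (log2 fold change -1.44, SE 0.30, edgeR adjusted p = 0.0109). Hist1h3c, with 9.43, 7.45 and 10.7 CPM against 1.72, 0.936 and 1.96 CPM, fell by 2.58 (SE 0.50, edgeR adjusted p = 0.00799). Hist1h3d, low in all groups, had too few counts to be tested in this comparison. It had no count in any miR-155KI NK1.1+ library, and its mean in NK1.1- cells was 6.77-fold the floor of 3 counts per library.

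The member that rose was the linker gene Hist1h1c, at 16.4, 13.1 and 16.4 CPM in miR-155KI NK1.1- and 40.5, 28.7 and 29.5 CPM in miR-155KI NK1.1+ libraries. All 3 NK1.1+ libraries were above the others, by 1.1 on the log2 scale (SE 0.23, edgeR adjusted p = 0.0125). The call was lost without any 1 of the NK1.1- libraries, with adjusted p of 0.0565 to 0.0762. The number of members called depended on single libraries: 1 without miR-155KI NK1.1- replicate 1 or without replicate 3, and 20 without miR-155KI NK1.1+ replicate 1. DESeq2 and edgeR without the filter on low counts each called 15. The replicate left out in the last case had the highest histone level of the NK1.1+ libraries and also 414 CPM of DP genes, against 123 and 148 CPM in the other miR-155KI NK1.1+ libraries and at most 93.5 CPM in WT, with 107 CPM of Dntt alone against 1.70 and 6.43. The 14 macrophage genes summed to 277 to 1028 CPM in the miR-155KI NK1.1+ libraries and to at most 209 CPM in all others, with 8 of the 13 tested higher in this comparison. The part of these cells in the histone values was not tested.

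The pool comparisons share no library. Of the 52 members tested in both, 42 were below 0 in both, and all 8 members that fell in miR-155KI cells were among the 33 that fell in WT cells, which is 24.2% of the latter. The difference was smaller in size in miR-155KI cells for 40 of the 52.

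Genotype was then compared within each pool. In NK1.1- cells, 2 of 59 tested members were lower in miR-155KI than in WT cells and none was higher, where 1.5% of all genes tested were lower and 1.93% higher. The median log2 fold change of the members was -0.70 and that of all genes -0.001, with 51 of 59 values below 0. In 14 members every miR-155KI library was below every WT library, which held for 9.93% of all genes. Both called members were H2A genes. Hist1h2an had 17.7, 9.90 and 16.8 CPM in WT and 6.13, 7.6 and 6.10 CPM in miR-155KI libraries and fell by 1.18 (SE 0.25, edgeR adjusted p = 0.0238). Hist1h2ab had 26.6, 14.0 and 33.7 CPM in WT and 12.5, 9.33 and 8.03 CPM in miR-155KI libraries and fell by 1.33 (SE 0.30, edgeR adjusted p = 0.04).

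Hist1h2ap overlapped between the genotypes, since WT replicate 2 had 585 CPM and the miR-155KI libraries 490 to 709 CPM (log2 fold change -0.74, SE 0.34, edgeR adjusted p = 0.345). The H3 gene Hist1h3i had 5.72, 6.18 and 4.18 CPM in WT and 2.83, 1.73 and 2.03 CPM in miR-155KI libraries, without overlap, at -1.29 (SE 0.34, edgeR adjusted p = 0.0593). Hist1h1c did not overlap either, at -0.73 (SE 0.21, edgeR adjusted p = 0.0751). The number of calls was not stable. It was 0 without miR-155KI replicate 1, miR-155KI replicate 3 or WT replicate 3, 1 without miR-155KI replicate 2 or WT replicate 1, and 8 without WT replicate 2, the WT library with the lowest histone level. DESeq2 called 8 members, edgeR without the filter 9, limma-voom 0 and the fit of all 12 libraries 0, and 18 of the 59 members had an unadjusted p under 0.05, as did 18.5% of all genes tested. The 12 DP genes summed to 389, 304 and 466 CPM in miR-155KI and 404, 236 and 296 CPM in WT libraries, which overlapped. Of the 9 tested, 6 were below 0 (median -0.11) and 1 was lower, the water channel gene Aqp11 (-1.54, SE 0.25, edgeR adjusted p = 0.00385), and their part in the histone values was not tested. The 14 B cell genes summed to 319, 149 and 109 CPM in miR-155KI and 934, 203 and 172 CPM in WT libraries, with none of 11 tested passing, and their part was not tested.

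In NK1.1+ cells none of 42 tested members passed the test between genotypes, where 0.0231% of all genes tested were higher and 0% lower, and none had an unadjusted p under 0.05, against 11.8% of all genes. DESeq2, limma-voom and edgeR without the filter also called 0. The median log2 fold change was 0.14 over the members and 0.02 over all genes. In 5 members (Hist1h1c, Hist1h2bj, Hist1h3a, Hist1h3e and Hist1h3i) every miR-155KI library was above every WT library, which held for 8.46% of all genes. Hist1h3i had 3.12, 4.10 and 1.58 CPM in miR-155KI and 0.775, 0.993 and 1.55 CPM in WT libraries (log2 difference 1.38, SE 0.71, edgeR adjusted p = 0.476).

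An interaction term fitted to all 12 libraries asked whether the genotype difference was the same in both pools, where a value above 0 means that the NK1.1+ over NK1.1- ratio was higher in miR-155KI than in WT cells. None of 61 tested members passed at an adjusted p under 0.05, against 0.0278% of all genes (0.00694% higher and 0.0208% lower). An unadjusted p under 0.05 was found for 12 of the 61 members and 8.1% of all genes, and DESeq2 and edgeR without the filter each called 1. The median was 0.91 over the members and 0.01 over all genes, with 49 of 61 values above 0. Without miR-155KI NK1.1+ replicate 1, the library with high DP genes, the median was 0.44. The smallest p were those of Hist1h3i (2.68, SE 0.72, edgeR adjusted p = 0.308), Hist1h2ah, which has a group at 0, and Hist1h1c (1.19, SE 0.36, edgeR adjusted p = 0.341).

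Members were also described by the place of the stem-loop printed above. In WT cells the median pool difference was -2.42 for members with a stem-loop in the last 100 bases (11 of 19 tested fell), -1.08 for those with an inner one (9 of 19) and -2.46 for those without a match (13 of 18). In miR-155KI cells the medians were -1.04, -0.20 and -0.97, and the inner group held 3 members that fell and the 1 that rose, Hist1h1c. The ranges of the groups overlapped in WT cells, from -4.09 to -0.12, from -3.01 to 0.27 and from -8.05 to 0.29. Whether the annotated transcript is the RNA that was captured is not known from counts per gene.

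**Figure D4:**
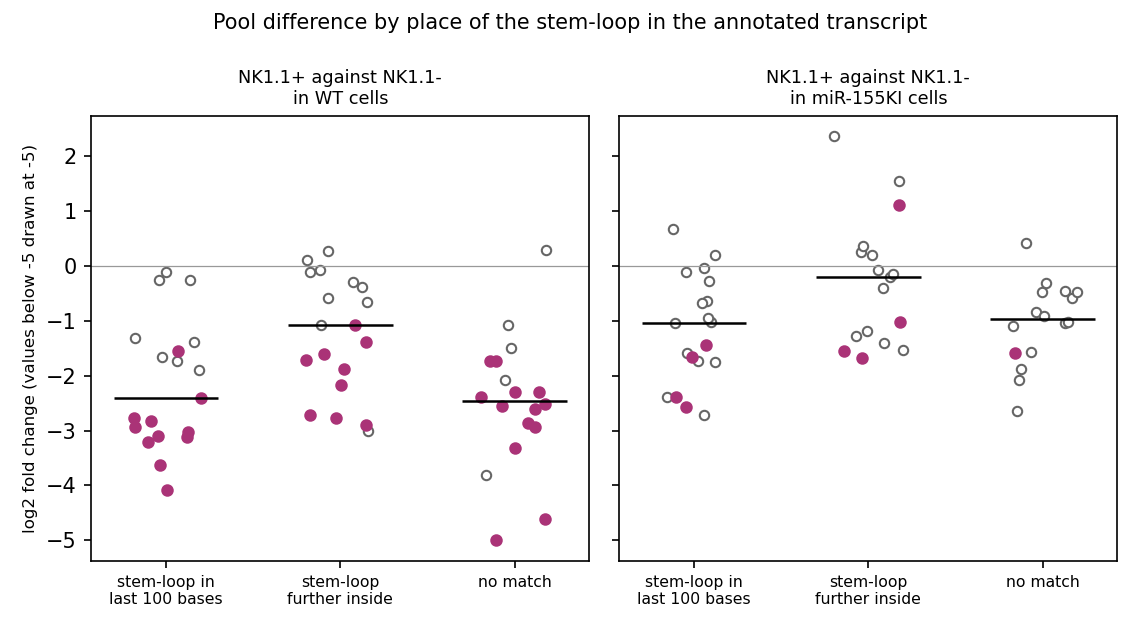
Log2 fold change of NK1.1+ against NK1.1- cells for members grouped by where the stem-loop lies in the annotated transcript, in WT (left) and miR-155KI cells (right). Points are members, filled where the edgeR adjusted p is under 0.05, lines are medians, and values below -5 are drawn at -5. The group with an inner stem-loop has the median nearest 0 in both genotypes, at -1.08 and -0.20.

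Other genes tied to histone supply were read from lists of genes with that role. Of the 11 replacement variants, which are usually made outside S phase as well, 5 of 9 tested fell in WT NK1.1+ against NK1.1- cells. They included Cenpa, the centromeric H3, at -1.64 (SE 0.17, edgeR adjusted p = 5.84e-05), H2afx, marked at DNA breaks, at -1.51 (SE 0.21), H2afz at -1.16 (SE 0.15) and the linker variant H1f0 at -0.92 (SE 0.18). H3f3b, which codes for H3.3, had 1382, 1475 and 1386 CPM in WT NK1.1- and 1631, 1797 and 1693 CPM in WT NK1.1+ libraries, and did not pass the test (0.24, SE 0.11, edgeR adjusted p = 0.163). In miR-155KI cells H3f3b passed as higher in NK1.1+ cells, at 0.33 to 0.36 over the alternatives. That call was lost without any 1 of 5 libraries (edgeR adjusted p of 0.0541 to 0.175). H1f0 had 101, 79.6 and 86.2 CPM in WT and 172, 106 and 138 CPM in miR-155KI NK1.1- libraries, above the WT range, at 0.63 (SE 0.16, edgeR adjusted p = 0.0611). None of the 9 passed between genotypes in either pool.

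Slbp, the stem-loop binding protein, was the 1 gene of 17 tested for histone mRNA processing that passed between genotypes in NK1.1- cells. It had 189, 181 and 172 CPM in WT and 126, 134 and 141 CPM in miR-155KI libraries, without overlap, and fell by 0.45 (SE 0.10, edgeR adjusted p = 0.0289). The call was lost without any 1 of the miR-155KI libraries or WT replicate 2 (adjusted p of 0.0749 to 0.159) and in the fit of all 12 libraries (0.105). In WT cells Slbp did not differ detectably between the pools, with 182, 191 and 170 CPM in NK1.1+ libraries (-0.03, SE 0.12, edgeR adjusted p = 0.892). In miR-155KI cells Slbp passed the test as higher in NK1.1+ cells, at 0.35 to 0.51 over the alternatives. That call was lost without any 1 of 4 libraries (edgeR adjusted p of 0.0709 to 0.192). In the WT pools 3 genes of the list fell, Srrt and the cap-binding genes Ncbp1 and Ncbp2, and Zcchc11, a uridylyl transferase, rose by 0.74 (SE 0.17, edgeR adjusted p = 0.00934). The Ncbp1 call (edgeR adjusted p = 0.04) was lost without any 1 of the 6 libraries, and the blocked fit called 7 genes of the list.

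Of 20 histone chaperones, 10 fell in WT NK1.1+ cells, and 6 without WT NK1.1- replicate 1, WT NK1.1- replicate 2 or WT NK1.1+ replicate 3. The largest fall named was that of Asf1b, which hands H3-H4 to the replication fork, at 92.8, 66.2 and 97.2 CPM against 17.5, 22.1 and 17 CPM (-2.21, SE 0.18, edgeR adjusted p = 1.65e-05). Chaf1a, a subunit of chromatin assembly factor 1, fell by 2.04 (SE 0.21, edgeR adjusted p = 6.54e-05). No chaperone passed between genotypes.

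Genes of S phase and of G2 and mitosis gave the wider frame. In WT NK1.1+ against NK1.1- cells 32 of 35 S phase genes fell (median -1.21) and 25 of 25 G2 and mitosis genes (median -2.54). In miR-155KI cells 19 of 35 and 15 of 25 fell (medians -0.62 and -1.30). The miR-155KI counts depended on single libraries, between 4 (without miR-155KI NK1.1- replicate 3) and 25 (without miR-155KI NK1.1+ replicate 1) for S phase, and between 1 and 25 for G2 and mitosis without the same libraries. Between genotypes in NK1.1- cells 3 S phase genes fell: Mcm2, a subunit of the replicative helicase (-0.69, SE 0.11, edgeR adjusted p = 0.0048), Cdt1, which loads it (-0.83, SE 0.14, edgeR adjusted p = 0.00561), and the transcription factor E2f2 (-0.72, SE 0.15, edgeR adjusted p = 0.0199). The median over the S phase list was -0.24 and over the G2 and mitosis list, in which none passed, -0.26, against -0.70 over the histone genes. In NK1.1+ cells the values leaned the other way, with 28 of 35 S phase genes (median 0.15) and 24 of 25 G2 and mitosis genes (median 0.91) above 0 in miR-155KI cells, against a median of 0.14 over the histone genes, and none of either list passed the edgeR test. An unadjusted p under 0.05 was found for 5 S phase and 13 G2 and mitosis genes, against 11.8% of all genes, and DESeq2 called 2 and 4. Cdt1 was at 110, 129 and 163 CPM in WT and 74.2, 70.4 and 83.5 CPM in miR-155KI NK1.1- libraries. The E2f2 call was lost without miR-155KI replicate 1, miR-155KI replicate 3 or WT replicate 3 (adjusted p of 0.0696 to 0.077).

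**Figure D5:**
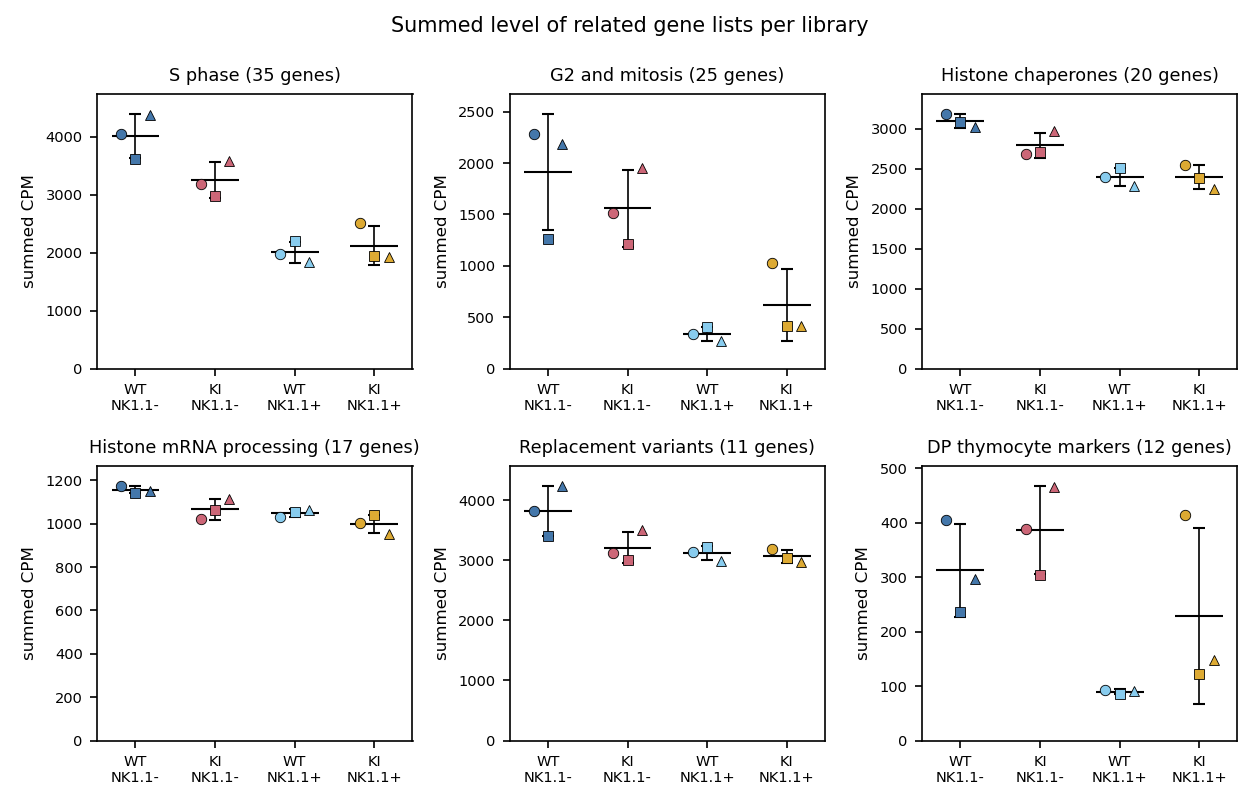
Summed TMM-normalised CPM per library of 6 gene lists. Points are libraries (circle, square and triangle for replicates 1, 2 and 3), lines are means and bars SD (n = 3). S phase and G2 and mitosis genes are higher in every NK1.1- library than in every NK1.1+ library, and miR-155KI NK1.1+ replicate 1 is the highest NK1.1+ library in both, as it is for DP thymocyte markers.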

How the data were processed

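RNA of 12 sorted iNKT libraries was sequenced, and the deposited values are raw counts, not normalised, listed by gene symbol. The submitters' processing notes name bcl2fastq 2.17.1.14 and GRCm38 (mm10), while the aligner, the counting program and the strand setting are not given in the sources used here. A deposited CPM table was not used. Groups came from the labels.

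Counts were analysed in R 4.3.3 with edgeR 4.0.16 (default filter on low counts, TMM, robust quasi-likelihood test, Benjamini-Hochberg adjustment over all genes tested, threshold 0.05), in 5 comparisons. Each pairwise comparison was fitted on its own 6 libraries and the interaction on all 12. Alternatives were DESeq2 1.42.0, limma-voom (limma 3.58.1), RLE size factors, no filter, a stricter filter with a minimum count of 50, a replicate block, a joint fit of the 12 libraries, and each library left out in turn. The test was checked on simulated data, with the same spread for all genes and changes only in genes of high counts. That check does not cover the members of low counts. Nor does it cover the wider spread in the comparisons with miR-155KI NK1.1+ libraries. Python 3.11.15 (pandas 2.3.3, matplotlib 3.10.9) was used for summaries and plots.

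The members and gene lists were chosen with earlier results of these data known. Named members were those called in any comparison, the 12 of highest mean level and the 3 of smallest p in each comparison (37 in all), and list genes were up to 4 of each list with the smallest p in the NK1.1- genotype and the WT pool comparison. Hist1h3d and Dntt fall outside this rule, and their choice followed a look at their values. In the WT pools, deviations from the group means correlated between libraries with equal replicate numbers (r = 0.315, 0.257 and 0.119), so the numbers were taken to pair them. NK1.1+ replicate 3 correlated as much with NK1.1- replicate 2 (r = 0.121), so the pairing of replicate 3 was not shown. The other unequal pairs were at 0.0353 or below. In the other comparisons at least 1 pair was below 0.1.

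Levels were divided by the summed length of a gene's annotated exons, over all its transcripts, for comparisons between genes. Stem-loops were searched in GENCODE M21 transcripts and promoter motifs in RefSeq (GRCm38.p6).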

Additional observations from a re-analysis of the deposited data

How the results depend on the processing

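The median log2 fold change of the members kept its direction under every alternative except between genotypes in NK1.1+ cells, where it ran from -0.13 to 0.40 as libraries were left out. The WT pool median was -2.42 without WT NK1.1+ replicate 2 (range -2.42 to -1.87 over the libraries left out), and the interaction median was 0.44 without miR-155KI NK1.1+ replicate 1 (range 0.44 to 1.22). In NK1.1- cells, where 2 members were called between genotypes, DESeq2 called 8, no filter on low counts 9, limma-voom 0 and all 12 libraries in one fit 0, and leaving out 1 library gave 0 to 8. With the replicate number as a block, 9 were called, although the numbers were not shown to pair these libraries (r = 0.069, 0.147 and 0.082). In the miR-155KI pool comparison, where 9 members were called, DESeq2 called 15, no filter 15 and all 12 libraries in one fit 14, and leaving out 1 library gave 1 to 20. In the interaction, where none was called, DESeq2 called 1 and no filter 1. The block changed the calls of Hist1h2ap, Hist1h2ae, Hist1h4d, Hist2h3b and Hist2h3c2 in the WT pools, and the cause was not tested. In the miR-155KI pools, equal replicate numbers correlated at r = 0.113, 0.0586 and 0.0448. There the block lost the calls of Hist1h2ag and Hist1h2bj (edgeR adjusted p = 0.0542 and 0.0654). Among the named members, in the comparisons where they were called or had the smallest p, no value changed direction under an alternative, 635 kept their side of the threshold, 94 lost it and 7 gained it. Omitting WT replicate 1, rerunning the gene lists and leaving libraries out of the class sums were chosen after seeing the data. With 3 libraries a group and many members under 10 CPM per kilobase, small differences were not detectable.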
